A study of Mus musculus with 8 samples.

Results

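A pair of RAW264.7 cell lines was compared whatever their doxycycline treatment, and the genes described are those whose 4 levels in one line all lay above the 4 levels in the other. RAW264.7 is a macrophage-like line established from a mouse tumour induced by Abelson leukaemia virus. One line carried an shRNA against Dis3l2 (shDis3l2) and the other a non-silencing shRNA (shNS). Each line gave 3 libraries after 4 days in 1 µg/mL doxycycline and 1 library grown for the same time without it, so 4 libraries stood against 4. Every one of these cells carried an shRNA construct, and no library came from cells without one. Of 13763 genes with enough counts to be tested, 2552 (18.5%) separated the lines in this way, 1201 (8.73%) with the higher levels in shDis3l2 and 1351 (9.82%) with the lower.

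The Dis3l2 protein is a ribonuclease that digests uridylated RNAs from their tailed end and works apart from the exosome complex. In vectors of this kind doxycycline usually induces the shRNA, so the untreated libraries measure how far the lines differed without the drug. Macrophages are phagocytes that depend on Csf1r signalling and carry many lysosomes, Fc receptors and sensors of microbes, and they answer interferon with a broad set of antiviral genes. The labels do not say whether each shRNA line was a single clone or a pool, nor which promoter drove the shRNA. Nor do they state that the replicates came from different cultures. The p-values thus reflect only how far these libraries scatter, and that scatter may be technical.

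Levels are counts scaled to library depth and by the trimmed mean of M values (TMM), in the usual unit CPM, and are not corrected for gene length. Library totals ran from 30341823 to 45557804 counts. The 4 shNS libraries did not form 1 group. A principal component analysis put 59.5% of the variance on its first axis, where the shDis3l2 libraries lay at 49.3 to 61.5, shNS replicates 1 and 3 at -27.8 and -34.4, and shNS replicate 2 and the untreated shNS library at -84.1 and -76.8. Correlations of log levels across genes within one library pair were 0.985 between shNS replicate 2 and untreated shNS and 0.972 between shNS replicates 1 and 3, but 0.944 to 0.953 across those pairs. Within shDis3l2 they were 0.972 to 0.991. The separating genes therefore rest on a control line that itself holds unlike libraries, and counts without either pair of them are given below.

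Macrophage markers were read in all 8 libraries, but some differed between the lines. Csf1r, the receptor for macrophage colony-stimulating factor, ran from 1197 to 2422 CPM, and Lyz2, which encodes lysozyme, from 2046 to 6889 CPM over the 8 libraries. Adgre1, Cd68 and Mpeg1, also macrophage markers, were called lower in shDis3l2. Csf1r and Itgam, another such marker, were called higher, though both calls were lost without untreated shDis3l2 or untreated shNS. Dendritic cell markers summed to 508 to 698 CPM in shDis3l2 and 424 to 1314 CPM in shNS. B and plasma cell markers summed to 27.3 to 97.1 CPM and 19.8 to 59.5 CPM. Of 20 markers of T and NK cells, 13 had no count in any library, as did 13 of 16 markers of fibroblasts and epithelia and 11 of 18 of neutrophils and mast cells. The summed neutrophil and mast cell markers reached 63.4 CPM in untreated shNS, against at most 0.178 CPM in shDis3l2, and S100a8 made up most of it, with 19.2 CPM in shNS replicate 2 and 41.2 CPM in untreated shNS. None of the 18 passed the count filter, and the part of such cells or states in the line difference was not tested. None of the 8 tested genes on the Y chromosome passed the test, and Xist was not among the genes tested.

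In the additive model, which fits the line and doxycycline together, the quasi-likelihood test of edgeR called 1483 of the 13763 genes for the line (10.8%) at an adjusted p under 0.05. Of these, 560 were higher in shDis3l2 (4.07%) and 923 lower (6.71%). Both criteria, the test and complete separation, were met by 498 genes that were higher (3.62%) and 864 that were lower (6.28%), together 1362 (9.9%). The test uses the same 8 libraries as the separation, so it adds the size and error of each difference but no independent support. The median log2 fold change was 0.96 among the higher and -1.47 among the lower genes, and 235 and 578 of them differed at least 2-fold. The lower genes were less abundant, with a median of 15.7 CPM against 29.6 CPM for the higher and 22.1 CPM for all genes tested.

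That count depended on the libraries. It was 546 without shDis3l2 replicate 2, 666 without replicate 3, 920 without shNS replicate 2, 833 without untreated shNS and 830 without untreated shDis3l2. Leaving out both shNS replicate 2 and untreated shNS gave 908 calls, and leaving out shNS replicates 1 and 3 gave 3260. In bulk RNA, fewer cells that express a gene and less RNA per cell cannot be told apart, and this holds for every difference below.

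The Dis3l2 gene itself (ENSMUSG00000053333) did not separate the lines. Its level was 11.9, 13.7 and 15.0 CPM with doxycycline and 28.8 CPM without it in shDis3l2, and 32.9, 28.8 and 21.8 CPM with doxycycline and 29.9 CPM without it in shNS. The untreated shDis3l2 library thus stood among the shNS values, and the 3 treated ones below all of them. The additive test gave a log2 fold change of -0.80 (SE 0.21, edgeR adjusted p = 0.051), just short of the threshold.

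Whether the line difference held without doxycycline was measured in libraries that share no sample. In the 6 treated libraries alone, edgeR called 845 of 13752 genes (6.14%), of which 825 were also among the 13763 genes. Of the 283 that were higher in treated shDis3l2, 263 (92.9%) were also higher in the untreated shDis3l2 library than in the untreated shNS library. Of the 542 that were lower, 510 (94.1%) were also lower there. Over all genes tested, 50.3% had a positive untreated ratio. The medians were 0.88 without doxycycline against 1.37 with it on the log2 scale for the higher genes, and -1.44 against -1.88 for the lower. Whether the sizes differed cannot be read from these medians. The genes were selected on the treated values, which are edgeR coefficients, while the untreated ratios are shrunk by a prior count of 2. Slc9a7, without a count in shNS, shows this. Its shDis3l2 level was 17.8 CPM untreated and 19.7 to 26.1 CPM treated, yet its log2 values were 8.33 and 12.66. The untreated side has 1 library per line, so its ratios carry no replicate error. Over 13668 genes the correlation of the log2 values was 0.737, across genes that are not independent and are measured in the same 2 sets of libraries.

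**Figure D1:**
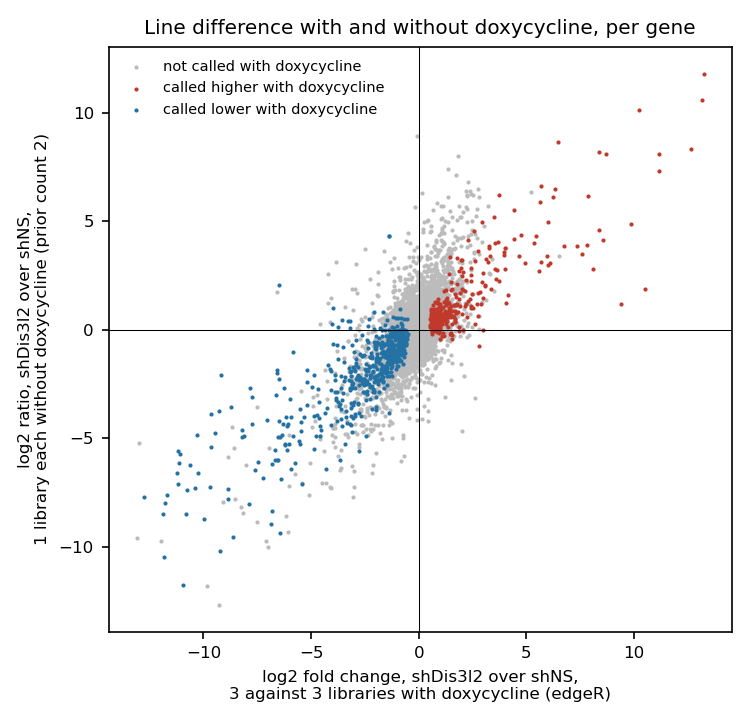
Each point is a gene, with its log2 fold change between the lines in the 6 treated libraries on the x axis and its log2 ratio between the 2 untreated libraries on the y axis. Genes called with doxycycline are coloured by direction, and 263 of 283 higher and 510 of 542 lower genes fall on the same side of 0 without doxycycline.

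No gene passed the interaction test, which asks whether the line difference changed with doxycycline (0 of 13763, 0%, edgeR), with 537 genes at an unadjusted p under 0.05. DESeq2 called 37 and limma-voom 0. Without shNS replicate 2, edgeR called 117. The doxycycline term of the additive model also gave 0 calls (0%, edgeR), with 532 genes at an unadjusted p under 0.05, 40 calls by DESeq2 and 0 by limma-voom. With 1 untreated library per line, these results do not show that the line difference was the same with and without the drug.

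Most separating genes separated narrowly. The gap, the distance on the log2(CPM + 0.1) scale between the nearest libraries of the lines, had a median of 0.35 among the called higher and 0.50 among the called lower genes, while the range within shNS had medians of 0.62 and 0.81 in the same genes. The range within shDis3l2 was 0.49 and 0.57. At the edge of the rule lay a higher gene with a gap of 7.5e-05 and an overlapping one at -8.3e-06. In 347 genes, 13.6% of those that separated, the gap was wider than the range within either line, 112 of them higher and 235 lower in shDis3l2. These wide-gap genes carry the clearest line difference, and 99 and 229 of them also passed the test.

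**Figure D2:**
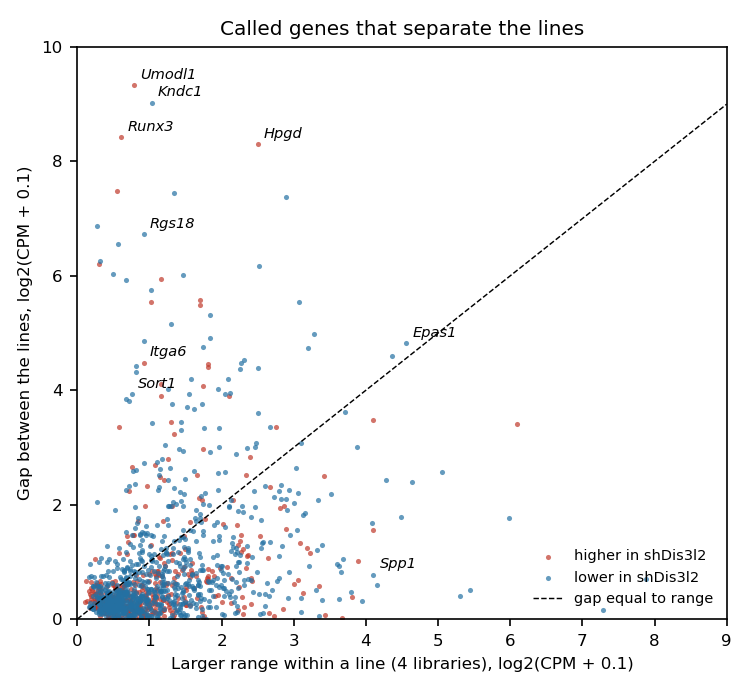
The gap between the lines (y axis) is plotted against the larger of the ranges within a line (x axis), both on the log2(CPM + 0.1) scale, for the 498 higher and 864 lower genes that were called and separated. Points above the dashed line have a gap wider than either range, as for Runx3, Umodl1 and Kndc1, whereas Spp1 separated with a range far wider than its gap.

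The extreme form was a gene with at least 1 CPM in all 4 libraries of one line and at most 3 counts in the other 4 together. There were 30 such genes, 6 with their level in shDis3l2 and 24 with it in shNS. All were called by edgeR, but the rule picked them on the same values, so the calls add no support. The number stayed between 32 and 37 when any 1 library was left out and was 30 under each scaling and count filter tried, but was 134 without shNS replicates 1 and 3. Where a group had 0 counts, 3 counts in each library were set as its floor, and folds against it are written as lower bounds. Floors and intervals cover counting error only.

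**Figure D3:**
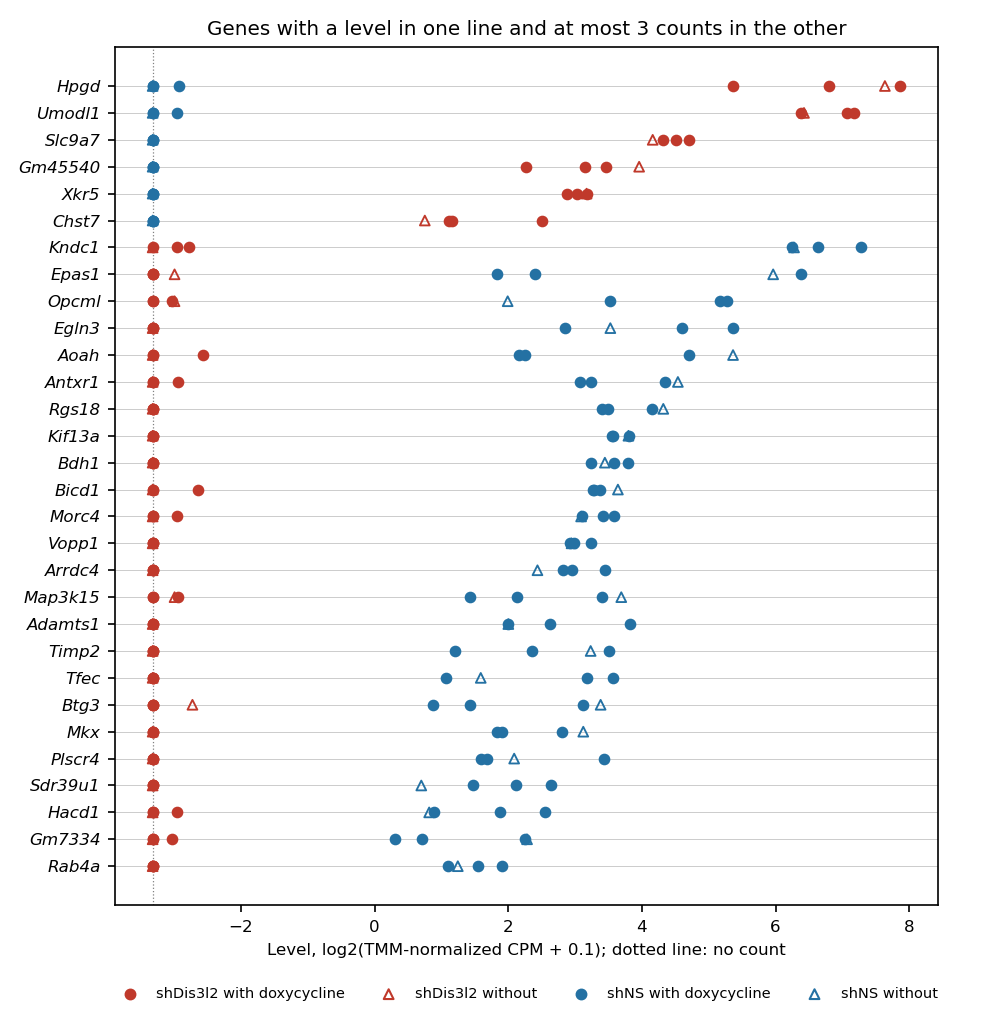
Levels of the 30 genes in each library are shown as log2(CPM + 0.1), with filled circles for libraries with doxycycline and open triangles for those without. The first 6 genes had their level in shDis3l2 and the other 24 in shNS. The rule covers all 4 libraries of each line, so the untreated library lies with its own line by definition.

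Of the 30 genes, 21 had a promoter in the RefSeq table used here (GRCm38.p6, from 250 bases before to 50 after a start), as did Runx3. Those of Runx3, Hpgd and Kndc1, which mark the comparison, are printed with that of Kif13a, which held the most CG dinucleotides of the matched genes. CG dinucleotides, the sites of DNA methylation, are in capitals. Umodl1, which also marks the comparison, held 7 and is not printed. Runx3 (chr4:135120395-135120694, plus strand) and Hpgd (chr8:56294302-56294601, plus strand) were near or at 0 in shNS, and Kndc1 (chr7:139894446-139894745, plus strand) and Kif13a (chr13:46929669-46929968, minus strand) in shDis3l2.
Runx3: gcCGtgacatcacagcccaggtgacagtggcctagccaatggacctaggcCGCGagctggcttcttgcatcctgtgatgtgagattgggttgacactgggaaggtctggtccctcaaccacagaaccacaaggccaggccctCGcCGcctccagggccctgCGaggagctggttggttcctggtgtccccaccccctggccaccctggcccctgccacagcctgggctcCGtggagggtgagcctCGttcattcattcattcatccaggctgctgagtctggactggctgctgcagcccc
Hpgd: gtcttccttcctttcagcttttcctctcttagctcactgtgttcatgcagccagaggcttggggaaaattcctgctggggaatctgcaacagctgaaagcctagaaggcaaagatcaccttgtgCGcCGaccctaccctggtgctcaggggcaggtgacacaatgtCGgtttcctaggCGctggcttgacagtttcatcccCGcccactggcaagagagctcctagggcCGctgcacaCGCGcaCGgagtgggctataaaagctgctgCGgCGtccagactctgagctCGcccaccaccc
Kndc1: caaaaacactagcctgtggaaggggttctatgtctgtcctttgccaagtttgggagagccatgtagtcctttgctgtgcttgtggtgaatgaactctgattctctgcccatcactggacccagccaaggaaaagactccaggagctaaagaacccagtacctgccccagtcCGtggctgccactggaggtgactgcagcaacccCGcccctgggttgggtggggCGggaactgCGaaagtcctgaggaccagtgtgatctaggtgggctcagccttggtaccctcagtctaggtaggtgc
Kif13a: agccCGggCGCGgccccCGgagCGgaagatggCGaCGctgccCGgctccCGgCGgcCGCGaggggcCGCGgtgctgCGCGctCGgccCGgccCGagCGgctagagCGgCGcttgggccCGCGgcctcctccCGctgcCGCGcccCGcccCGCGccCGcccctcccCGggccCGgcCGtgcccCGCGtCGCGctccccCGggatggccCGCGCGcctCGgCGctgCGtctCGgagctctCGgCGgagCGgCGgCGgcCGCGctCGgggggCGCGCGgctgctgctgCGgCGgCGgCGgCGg
These stretches hold 8, 12, 4 and 62 CG in that order. Over the 21 matched genes the number ran from 3 in Aoah and Tfec to 62 in Kif13a, so genes with CG-poor and with CG-rich starts were both at or near 0 in one line. The letters TGTGGT, the core bound by RUNX proteins, occurred on either strand 2 times in the Runx3 stretch and 1 time in those of Kndc1, Aoah, Tfec and Plscr4, and 12.3% of the 9179 matched promoters of genes tested held them at least once. A match of letters is a description and not a bound site. Only 66.7% of all genes tested and 73.5% and 74.9% of the called higher and lower genes had a promoter in the table, so a comparison of promoter features between these sets was void and none is given.

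Runx3 encodes a RUNX family transcription factor known in T and NK cells, dendritic cells and some tissue macrophages (ENSMUSG00000070691, chr4:135120652-135177990). Its level was 66.7, 85.7 and 76.9 CPM with doxycycline and 93.0 CPM without it in shDis3l2. In shNS it was 0.0941, 0.0294 and 0.057 CPM with doxycycline and 0.0277 CPM without it, which is 7 counts over 4 libraries. The means were 80.6 ± 11.3 CPM (SD, n = 4) and 0.052 ± 0.0311 CPM (SD, n = 4) (log2 fold change 10.53, SE 0.27, edgeR adjusted p = 1.5e-06). All 4 shDis3l2 libraries were high and within 1.39-fold of each other. Id3, an inhibitor of helix-loop-helix factors, was also higher, at 69.7, 75.4 and 72.8 CPM with doxycycline and 67.9 CPM without it against 7.46, 1.03 and 11.98 CPM with doxycycline and 6.92 CPM without it (log2 fold change 3.38, SE 0.63, edgeR adjusted p = 0.02). Its groups were far apart, but the call was lost without shDis3l2 replicate 2, shDis3l2 replicate 3, untreated shDis3l2 or untreated shNS (adjusted p from 0.064 to 0.069).

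Of 43 tested transcription factors of the blood lineages, 5 were called higher and 8 lower in shDis3l2, against 4.07% and 6.71% of all genes, and 4 and 6 of these also separated, against 3.62% and 6.28%. Tfec, a macrophage member of the MiT family of lysosomal and osteoclast regulators (ENSMUSG00000029553, chr6:16833373-16898441), had 0 CPM in all 4 libraries of shDis3l2. In shNS it stood at 8.94, 2.00 and 11.8 CPM with doxycycline and 2.91 CPM without it, at least 79-fold higher (edgeR adjusted p = 0.013). Maf, which encodes the c-Maf factor of macrophages, was likewise at 0 in shDis3l2 and at 4.64, 2.94 and 0.827 CPM with doxycycline and 0.748 CPM without it in shNS (edgeR adjusted p = 0.015). Gata3 was low throughout, at 0.634, 0.324 and 0.386 CPM with doxycycline and 0.587 CPM without it against 2.76, 3.85 and 2.82 CPM with doxycycline and 3.74 CPM without it, but with groups well apart (log2 fold change -2.76, SE 0.29, edgeR adjusted p = 0.0016). The median of the list was 0.03 on the log2 scale, near the 0.00 of all genes tested, and it changed sign under some settings.

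Genes of prostaglandin handling differed in both directions. Hpgd encodes the dehydrogenase that inactivates prostaglandins (ENSMUSG00000031613, chr8:56294585-56321043). It stood at 233, 111 and 41.2 CPM with doxycycline and 199 CPM without it in shDis3l2 and had 1 count in shNS, in replicate 1. Summed counts per depth gave a ratio of 21125 (95% counting interval 3791 to 834410), and the test passed (edgeR adjusted p = 0.00072). The shDis3l2 libraries differed 5.66-fold among themselves, with the untreated one among the high values. Gm45540, a gene model that lies within the Hpgd coordinates, was read in the same libraries, at 8.75, 10.9 and 4.696 CPM with doxycycline and 15.5 CPM without it, and its reads may not be separable from those of Hpgd.

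Of the 20 tested genes of prostaglandin and leukotriene synthesis and reception, Hpgd was called higher and 6 were called lower, all 6 separated. Of all genes, 6.71% were called lower and 6.28% both called lower and separated. Hpgds, haematopoietic prostaglandin D synthase, was 79.8, 41.1 and 42.0 CPM with doxycycline and 73.3 CPM without it in shDis3l2 against 164, 181 and 138 CPM with doxycycline and 160.1 CPM without it in shNS (log2 fold change -1.46, SE 0.24, edgeR adjusted p = 0.009). Ptgs1, the constitutive cyclooxygenase, was 18.5, 8.15 and 14.2 CPM with doxycycline and 4.62 CPM without it against 41.8, 185 and 50.9 CPM with doxycycline and 195 CPM without it (log2 fold change -3.35, SE 0.75, edgeR adjusted p = 0.036). Ltc4s, the synthase of leukotriene C4, was 3.40, 2.09 and 2.23 CPM with doxycycline and 4.65 CPM without it against 10.9, 99.6 and 11.7 CPM with doxycycline and 109.6 CPM without it (log2 fold change -4.13, SE 0.85, edgeR adjusted p = 0.029). For both, shNS replicate 2 and untreated shNS stood far above shNS replicates 1 and 3. Ptgr1 and Ptgr2, reductases that act on prostaglandin metabolites, and Ptgir, the prostacyclin receptor, were the others, with log2 fold changes of -3.09, -0.69 and -3.50. The untreated pair gave negative ratios for all 6, which their separation already requires. The calls of 4 of them rested on single libraries. That of Ptgs1 was lost without shDis3l2 replicate 2, shDis3l2 replicate 3, untreated shDis3l2, shNS replicate 2 or untreated shNS (adjusted p from 0.072 to 0.12), and that of Ltc4s without shDis3l2 replicate 1, shDis3l2 replicate 2, shDis3l2 replicate 3, untreated shDis3l2 or untreated shNS (adjusted p from 0.05 to 0.11). Ptgir was not called without shDis3l2 replicate 2 or shDis3l2 replicate 3 (adjusted p from 0.058 to 0.06), nor Ptgr2 without shDis3l2 replicate 1, shDis3l2 replicate 3, untreated shDis3l2, shNS replicate 2 or untreated shNS (adjusted p from 0.054 to 0.085).

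Regulators of Ras held a gene at each extreme. Kndc1 encodes a brain-enriched protein with a Ras exchange factor domain (ENSMUSG00000066129, chr7:139894696-139941537). It stood at 155, 75.6 and 99.1 CPM with doxycycline and 77.5 CPM without it in shNS, and 3 counts were found in all of shDis3l2. The count ratio was 5058 (95% counting interval 1730 to 24530) with edgeR adjusted p = 2.1e-05. Rasal3, a Ras GTPase-activating protein of blood cells, ran the other way with 19.3, 19.3 and 18.5 CPM with doxycycline and 18.005 CPM without it in shDis3l2 and 0.0314, 0.0588 and 0.143 CPM with doxycycline and 0.194 CPM without it in shNS (log2 fold change 7.41, SE 0.36, edgeR adjusted p = 4.4e-05). Its 4 shDis3l2 values hardly differed. Rassf5, a Ras effector, was 112, 104 and 96.7 CPM with doxycycline and 58.9 CPM without it against 57.9, 44.0 and 50.9 CPM with doxycycline and 42.3 CPM without it (log2 fold change 0.89, SE 0.14, edgeR adjusted p = 0.0079). Of 34 tested genes of this list, 4 were called higher, against 4.07% of all genes, and 3 lower, a share near the 6.71% of all.

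Rgs18, a member of the family that shortens signalling by G proteins (ENSMUSG00000026357, chr1:144752683-144775435), had 0 CPM in all 4 libraries of shDis3l2. In shNS it was 10.5, 17.7 and 11.2 CPM with doxycycline and 19.9 CPM without it, so that it was at least 184-fold lower in shDis3l2 (edgeR adjusted p = 0.00058). Its shNS values formed pairs, replicate 2 with the untreated library above replicates 1 and 3. Of 25 tested RGS and G protein subunit genes, 1 was called higher, near the 4.07% of all genes, and 4 lower, against 6.71%. Besides Rgs18, the lower ones were Rgs12, Gna12 and Gng12, with log2 fold changes of -1.58, -0.79 and -0.74. The call of Gna12 was lost without any 1 of shNS replicate 2, shDis3l2 replicates 2 or 3 or an untreated library (edgeR adjusted p from 0.065 to 0.093), and that of Gng12 without shDis3l2 replicate 2 (0.055). Without both shNS replicate 2 and untreated shNS neither was called (edgeR adjusted p = 0.18 and 0.076). Rgs12 was not called without shDis3l2 replicate 1, shDis3l2 replicate 2, shDis3l2 replicate 3, untreated shDis3l2, shNS replicate 1, shNS replicate 2 or untreated shNS (adjusted p from 0.058 to 0.17).

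Umodl1, which encodes a uromodulin-like membrane protein (ENSMUSG00000054134, chr17:30954640-31010710), was read at 144, 134 and 83.3 CPM with doxycycline and 85.9 CPM without it in shDis3l2 and at 1 count in shNS. The ratio was 15520 (95% counting interval 2785 to 613050) with edgeR adjusted p = 6.5e-06, and its gap was the widest of all genes called and separated. Slc9a7, a sodium and potassium exchanger of the Golgi and endosomes, and Chst7, a sulfotransferase of glycosaminoglycans, are neighbours on the X chromosome, at chrX:20105754-20291807 and chrX:20059560-20097521. Slc9a7 was 19.7, 26.1 and 22.8 CPM with doxycycline and 17.8 CPM without it in shDis3l2 and had no count in shNS, at least 246-fold higher (edgeR adjusted p = 0.00017). Chst7 was 5.55, 2.06 and 2.14 CPM with doxycycline and 1.58 CPM without it, at least 32-fold higher (edgeR adjusted p = 0.0053), with replicate 1 above the other 3 libraries. Xkr5, of the XK family of membrane proteins, was 7.30, 8.98 and 8.02 CPM with doxycycline and 8.91 CPM without it, at least 95-fold higher (edgeR adjusted p = 0.00037). These Xkr5 values lay within 1.23-fold of each other. Further genes near 0 in shNS were Fstl5, a follistatin-like gene, and Angptl2, a secreted angiopoietin-like factor, with log2 fold change 8.82, SE 0.62, edgeR adjusted p = 0.00032 and log2 fold change 7.15, SE 0.77, edgeR adjusted p = 0.0024.

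The 24 genes of the extreme form with their level in shNS had at most 3 counts in shDis3l2. Among them, Kif13a, a kinesin that moves endosomal and melanosomal cargo, was 14.0, 11.8 and 11.6 CPM with doxycycline and 13.8 CPM without it in shNS with 0 counts in shDis3l2, at least 159-fold lower (edgeR adjusted p = 0.00025). Bicd1, an adaptor of dynein, was 10.3, 9.55 and 9.67 CPM with doxycycline and 12.4 CPM without it, against 2 counts (edgeR adjusted p = 0.00017). Rab4a, a GTPase of endosomal recycling, was 2.04, 3.64 and 2.82 CPM with doxycycline and 2.27 CPM without it, at least 33-fold lower (edgeR adjusted p = 0.0019). The shNS values of Kif13a spanned 1.21-fold and those of Bicd1 1.30-fold, although these 4 libraries differed elsewhere. Vopp1, a vesicle membrane protein, Bdh1, a mitochondrial enzyme of ketone bodies, and Morc4, of the MORC ATPase family, had similarly even shNS levels, between 7.53 and 13.8 CPM. Vopp1 and Bdh1 were at 0 in shDis3l2 (at least 100-fold and at least 142-fold lower), and Morc4 had 1.

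Others of the 24 varied along the divide among the shNS libraries. Aoah, the hydrolase that inactivates lipopolysaccharide, was 4.67, 26.0 and 4.39 CPM with doxycycline and 41.1 CPM without it in shNS against 3 counts in shDis3l2 (edgeR adjusted p = 0.005). Map3k15, Btg3, Mkx, Plscr4 and Gm7334 showed the same order, with shNS replicate 2 and the untreated library above replicates 1 and 3. Opcml, a GPI-anchored adhesion protein, had the reverse order, 38.6, 11.4 and 36.0 CPM with doxycycline and 3.88 CPM without it against 2 counts (edgeR adjusted p = 0.00066). Arrdc4, an arrestin-domain protein (at least 96-fold lower), and Sdr39u1 followed it, between 1.52 and 10.8 CPM. Hacd1, an enzyme of fatty acid elongation, varied without either pattern. Antxr1, an anthrax toxin receptor that binds collagen, was 9.31, 20.2 and 8.30 CPM with doxycycline and 23.1 CPM without it against 1 count (edgeR adjusted p = 0.0002).

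Hypoxia signalling was represented by Epas1 and Egln3. Epas1 encodes HIF-2 alpha and Egln3 a prolyl hydroxylase that marks HIF proteins for breakdown. Epas1 was 3.45, 83.7 and 5.19 CPM with doxycycline and 62.4 CPM without it in shNS, a span of 24.3-fold within the line, and had 1 count in shDis3l2 (edgeR adjusted p = 0.013). Egln3 was 7.12, 41.1 and 24.1 CPM with doxycycline and 11.4 CPM without it with 0 counts in shDis3l2, at least 260-fold lower (edgeR adjusted p = 0.015). Their groups never overlapped, but the edgeR call of Epas1 was lost without shDis3l2 replicate 2 or 3 or either untreated library (adjusted p from 0.061 to 0.15) and that of Egln3 without shNS replicate 3 (0.059) or without the count filter (0.065).

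Of 50 tested genes of the hypoxia response and glycolysis, 14 were called lower and 1 higher, against 6.71% and 4.07% of all genes, and 13 of the lower also separated, against 6.28%. Slc2a3, a glucose transporter, was 17.8, 14.4 and 15.5 CPM with doxycycline and 16.7 CPM without it in shDis3l2 against 36.2, 86.6 and 46.9 CPM with doxycycline and 69.1 CPM without it in shNS (log2 fold change -1.89, SE 0.26, edgeR adjusted p = 0.0052). Pfkfb3, which makes the activator of phosphofructokinase, was 23.6, 20.8 and 19.9 CPM with doxycycline and 35.9 CPM without it against 65.4, 85.7 and 111 CPM with doxycycline and 56.3 CPM without it (log2 fold change -1.69, SE 0.28, edgeR adjusted p = 0.0097). Its untreated libraries lay closest to the other line. Ero1l, an oxidase of the endoplasmic reticulum, showed the same order, with a log2 fold change of -1.48 in the test and a log2 ratio of -0.65 without doxycycline. Over the list the median was -0.67 in the 8 libraries, -0.89 in the 6 treated ones and 0.11 in the untreated pair, where 30 of the 50 genes had a positive ratio and 6 of the 14 called lower differed 2-fold. Median values over all genes tested were 0.00. The lower median of this list was thus seen in the treated libraries and not in the untreated pair. Of the 14 genes called lower, 13 had a negative ratio in that pair, but these are the 13 that separated, and separation already requires that sign. No member passed the interaction test, which with 1 untreated library per line does not show an equal difference. The count of lower calls ran from 5 without shDis3l2 replicate 2 and 6 without replicate 3 to 23 in the treated libraries alone.

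Interferon-stimulated genes were the list with the most calls. Of 64 tested, 49 were called higher in shDis3l2 and 0 lower, against 4.07% and 6.71% of all genes, with a median log2 fold change of 1.42. Both the call and separation were met by 29 of the 64, against 3.62% of all genes. In all 49 the untreated library was the lowest of the 4 in shDis3l2, and in 43 the highest shNS library was replicate 1. In the untreated pair all 49 had a positive ratio and 30 differed 2-fold, and the list median was 0.87 there against 1.67 in the treated libraries. That sign was already required for the 29 that separated, and the calls used the untreated libraries too. Without 1 library the called number ran from 33 (without shDis3l2 replicate 2) and 34 (without replicate 3) to 50.

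Tgtp2, an interferon-inducible GTPase, and Cxcl10, a ligand of CXCR3, were the 2 members with a wide gap. Tgtp2 was 7.001, 7.06 and 5.53 CPM with doxycycline and 2.73 CPM without it in shDis3l2 and 0.125, 0.117 and 0.2 CPM with doxycycline and 0.0831 CPM without it in shNS (log2 fold change 5.34, SE 0.29, edgeR adjusted p = 6.5e-05). Ifit1, which binds foreign RNA ends, was 10.9, 15.8 and 18.5 CPM with doxycycline and 4.47 CPM without it against 1.35, 0.617 and 0.941 CPM with doxycycline and 0.36 CPM without it (log2 fold change 3.88, SE 0.30, edgeR adjusted p = 0.00037). Oasl2, of the oligoadenylate synthetase family, was 27.5, 21.3 and 26.0 CPM with doxycycline and 5.06 CPM without it against 3.17, 1.23 and 1.68 CPM with doxycycline and 0.692 CPM without it (log2 fold change 3.45, SE 0.32, edgeR adjusted p = 0.00089). Across these genes the treated shDis3l2 libraries were high, the untreated one intermediate and all shNS libraries low. Cxcl11, another CXCR3 ligand, was 7.70, 4.44 and 3.24 CPM with doxycycline and 0.357 CPM without it, with 2 counts in shNS (edgeR adjusted p = 0.0062). Apol9a, an apolipoprotein L gene outside the list, was among the largest differences, at 29.8, 29.1 and 24.7 CPM with doxycycline and 9.78 CPM without it against 0.564, 0.117 and 0.342 CPM with doxycycline and 0.0554 CPM without it (log2 fold change 6.49, SE 0.40, edgeR adjusted p = 0.00017).

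Lysosomal genes lay the other way. Of 49 tested genes of lysosomal hydrolases and membrane proteins, 21 were called lower in shDis3l2 and 0 higher, against 6.71% and 4.07% of all genes. Lower separation was met by 24, against 9.82%, and higher separation by 0, against 8.73%. The median was -0.59 on the log2 scale with 8 libraries and -0.58 in the untreated pair, where all 21 had a negative ratio and 11 differed 2-fold. That sign was already required for the 20 of them that separated, and the calls used the untreated libraries too. The summed level of the list was 7898 to 10050 CPM in shDis3l2 and 13012 to 19146 CPM in shNS. Without 1 library the count of calls ran from 6 (without shDis3l2 replicate 2) and 8 (without replicate 3) to 23, and was 11 without either untreated library.

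Sort1, the sorting receptor sortilin, was the clearest member, at 1.27, 1.09 and 1.90 CPM with doxycycline and 1.38 CPM without it in shDis3l2 against 42.9, 42.2 and 30.5 CPM with doxycycline and 43.1 CPM without it in shNS (log2 fold change -4.81, SE 0.23, edgeR adjusted p = 3.4e-05). Tpp1, a tripeptidyl peptidase, was 121, 104 and 107 CPM with doxycycline and 129 CPM without it against 217, 273 and 238 CPM with doxycycline and 258 CPM without it (log2 fold change -1.10, SE 0.12, edgeR adjusted p = 0.0016). Gla, alpha-galactosidase A, was 16.2, 9.15 and 10.6 CPM with doxycycline and 9.27 CPM without it against 44.8, 87.2 and 56.1 CPM with doxycycline and 65.6 CPM without it (log2 fold change -2.49, SE 0.27, edgeR adjusted p = 0.0019). All 3 had wide gaps, with even levels in shDis3l2. The cathepsins Ctsb and Ctsd were the most abundant. Ctsb was 1174, 750.2 and 808 CPM with doxycycline and 729 CPM without it against 1848, 3043 and 2862 CPM with doxycycline and 2457 CPM without it (log2 fold change -1.57, SE 0.22, edgeR adjusted p = 0.0046). Ctsd was 694, 394 and 449.8 CPM with doxycycline and 378 CPM without it against 1088, 3976 and 2238 CPM with doxycycline and 3451 CPM without it (log2 fold change -2.48, SE 0.43, edgeR adjusted p = 0.013), and its call was lost without shDis3l2 replicate 2 or 3 (edgeR adjusted p = 0.057 and 0.053).

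**Figure D4:**
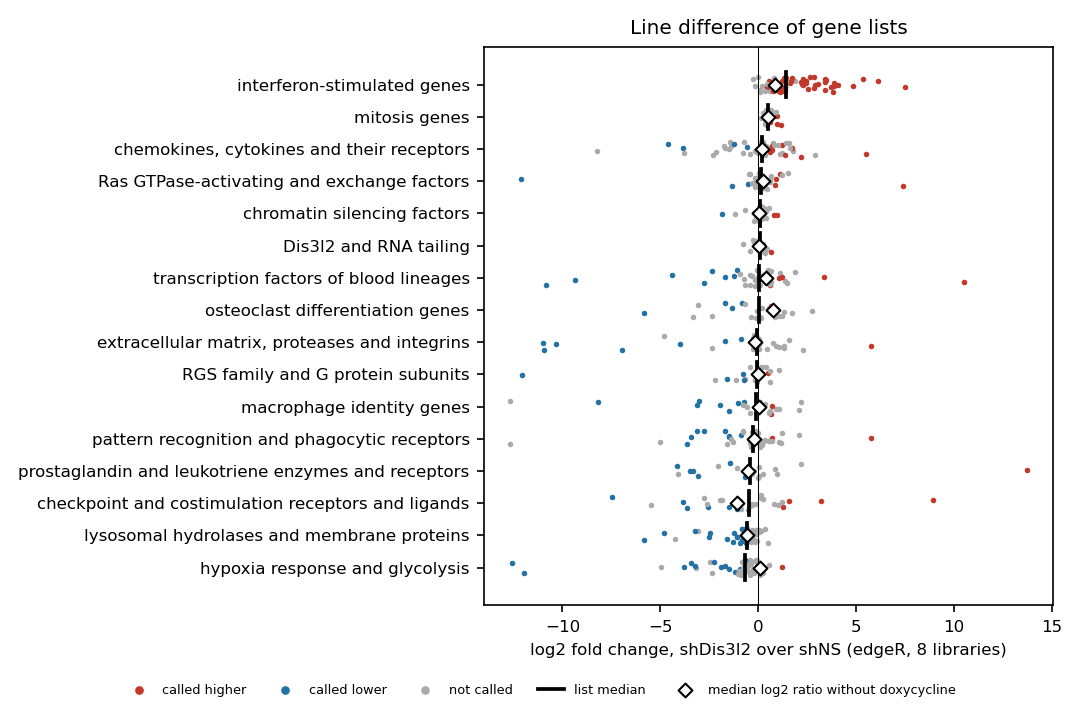
Each dot is a tested gene of a list, at its log2 fold change between the lines in the 8-library edgeR fit, coloured where it was called. Black bars mark the list medians and open diamonds the median log2 ratio of the untreated pair, which have the same sign for interferon-stimulated and lysosomal genes but not for hypoxia and glycolysis genes (-0.67 and 0.11).

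Surface receptors of immune cells differed in both directions. Pdcd1, the inhibitory receptor PD-1, was 19.9, 14.8 and 6.95 CPM with doxycycline and 22.8 CPM without it in shDis3l2 and had 4 counts in shNS (log2 fold change 8.94, SE 0.58, edgeR adjusted p = 0.0002). Cd86, a costimulatory ligand, was lower at 0.272, 0.235 and 0.446 CPM with doxycycline and 0.128 CPM without it against 2.95, 2.85 and 3.76 CPM with doxycycline and 3.52 CPM without it (log2 fold change -3.63, SE 0.37, edgeR adjusted p = 0.0014). Cd80 had a log2 fold change of -3.86, Icos of -2.57 and Cd28 of -7.49, while Cd40 had one of 3.22. The last 3 calls rested on single libraries. Icos was not called without shDis3l2 replicate 2, shDis3l2 replicate 3, untreated shDis3l2 or untreated shNS (adjusted p from 0.065 to 0.069), Cd28 without shDis3l2 replicate 2, shDis3l2 replicate 3, untreated shDis3l2 or untreated shNS (adjusted p from 0.052 to 0.086) and Cd40 without shDis3l2 replicate 1, shDis3l2 replicate 2, shDis3l2 replicate 3, untreated shDis3l2 or untreated shNS (adjusted p from 0.069 to 0.099). Ly9, a SLAM family receptor, was 28.2, 25.2 and 24.0 CPM with doxycycline and 19.7 CPM without it against 71.4, 64.5 and 56.8 CPM with doxycycline and 76.0 CPM without it (log2 fold change -1.47, SE 0.15, edgeR adjusted p = 0.0014). Of 28 tested checkpoint and costimulation genes, 4 were called higher and 7 lower, beside 4.07% and 6.71% of all genes.

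Of 41 tested pattern recognition and phagocytic receptors, 8 were called lower, against 6.71% of all genes, and 2 higher, near the 4.07% of all. Fcgr3 and Fcgr2b, receptors for the Fc part of IgG, were 17.6, 12.4 and 16.2 CPM with doxycycline and 13.4 CPM without it against 37.1, 53.7 and 45.8 CPM with doxycycline and 32.1 CPM without it (log2 fold change -1.49, SE 0.17, edgeR adjusted p = 0.002) and 10.0, 5.65 and 6.66 CPM with doxycycline and 6.67 CPM without it against 25.5, 23.7 and 19.7 CPM with doxycycline and 26.1 CPM without it (log2 fold change -1.71, SE 0.20, edgeR adjusted p = 0.0025). C3ar1, the receptor for complement C3a, was 20.3, 8.74 and 15.0 CPM with doxycycline and 21.3 CPM without it against 104, 259 and 264 CPM with doxycycline and 188 CPM without it (log2 fold change -3.66, SE 0.41, edgeR adjusted p = 0.0026). Mrc1, the mannose receptor, was lower with log2 fold change -3.12, SE 0.48, edgeR adjusted p = 0.0068. The 2 called higher were Axl, a receptor for dying cells, and Itgam, a chain of complement receptor 3, with log2 fold changes of 5.78 and 0.71. Axl was not called without shDis3l2 replicate 1, shDis3l2 replicate 2, shDis3l2 replicate 3, untreated shDis3l2, shNS replicate 3 or untreated shNS (adjusted p from 0.052 to 0.11), nor Itgam without shDis3l2 replicate 2, shDis3l2 replicate 3, untreated shDis3l2, shNS replicate 2 or untreated shNS (adjusted p from 0.099 to 0.14). Gas6, the ligand of Axl, lay the other way at 0.317, 0 and 0 CPM with doxycycline and 0.0511 CPM without it in shDis3l2 against 69.0, 515 and 157 CPM with doxycycline and 369 CPM without it in shNS (log2 fold change -11.32, SE 1.20, edgeR adjusted p = 0.0031).

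Of 23 tested macrophage identity genes, 7 were called lower, a larger share than the 6.71% of all genes, and 2 higher, against 4.07%. The list had a median of -0.12 that changed sign under some settings. Adgre1, which encodes F4/80, was 10.6, 7.15 and 26.0 CPM with doxycycline and 5.03 CPM without it in shDis3l2 and 120.1, 63.3 and 98.3 CPM with doxycycline and 79.5 CPM without it in shNS (log2 fold change -3.00, SE 0.49, edgeR adjusted p = 0.012). Csf1r was one of the higher ones at 0.65, and was not called without shDis3l2 replicate 1, shDis3l2 replicate 2, shDis3l2 replicate 3, untreated shDis3l2, shNS replicate 1, shNS replicate 2 or untreated shNS (adjusted p from 0.056 to 0.14). Among 7 tested dendritic cell markers, 4 were called lower and 1 higher, beside 6.71% and 4.07% of all genes. The lower ones held Ciita, the regulator of MHC class II, with 17.1, 29.5 and 1.74 CPM with doxycycline and 41.2 CPM without it in shNS and 0.34, 0.177 and 0.268 CPM with doxycycline and 0.434 CPM without it in shDis3l2 (log2 fold change -6.09, SE 0.92, edgeR adjusted p = 0.0095), and limma-voom did not call it (adjusted p = 0.062). Siglech, the higher one, stood under 1 CPM in shDis3l2. Of 3 tested B cell markers, Ighm was 84.9, 35.0 and 18.2 CPM with doxycycline and 27.1 CPM without it against 3.83, 4.73 and 1.797 CPM with doxycycline and 5.73 CPM without it (log2 fold change 3.37, SE 0.61, edgeR adjusted p = 0.018), a call lost without shNS replicate 2 (0.0503) or shDis3l2 replicate 2 (0.054) or without both shNS replicates 1 and 3 (0.0502). Ighd was also called higher, at under 1.2 CPM, so that 2 of the 3 were called higher, against 4.07% of all genes. The other B and plasma cell markers were not tested or not called, with 7 of 19 at no count.

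Among 52 tested chemokines, cytokines and receptors, 9 were called higher, against 4.07% of all genes, and 4 lower, near the 6.71% of all. Tnfrsf10b, a death receptor for TRAIL, was 0.476, 0.147 and 0.297 CPM with doxycycline and 0.23 CPM without it against 4.67, 6.88 and 10.1 CPM with doxycycline and 6.84 CPM without it (log2 fold change -4.60, SE 0.41, edgeR adjusted p = 0.00076). Tnfrsf1b, TNF receptor 2, was 37.0, 38.6 and 44.3 CPM with doxycycline and 31.3 CPM without it against 89.4, 85.5 and 102 CPM with doxycycline and 79.4 CPM without it (log2 fold change -1.24, SE 0.11, edgeR adjusted p = 0.00076). Cxcr4, the receptor for CXCL12, was 0.748, 0.912 and 1.10 CPM with doxycycline and 1.66 CPM without it against 10.9, 17.2 and 4.76 CPM with doxycycline and 37.4 CPM without it (log2 fold change -3.82, SE 0.43, edgeR adjusted p = 0.0024). The higher members held Ifnar2, a chain of the type I interferon receptor, at 128, 133 and 143 CPM with doxycycline and 130.2 CPM without it against 86.1, 68.6 and 92.2 CPM with doxycycline and 76.3 CPM without it (log2 fold change 0.73, SE 0.12, edgeR adjusted p = 0.009).

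Of 27 tested genes of matrix, proteases and integrins, 1 was called higher, near the 4.07% of all genes, and 7 lower, against 6.71%. The higher one, the laminin receptor chain Itga6, was 15.5, 25.7 and 29.5 CPM with doxycycline and 28.2 CPM without it against 0.47, 0.323 and 0.599 CPM with doxycycline and 0.415 CPM without it (log2 fold change 5.76, SE 0.30, edgeR adjusted p = 5.6e-05). A laminin chain, Lamb2, lay the other way at 2.32, 7.35 and 3.99 CPM with doxycycline and 3.52 CPM without it in shNS and 0.0906, 0.0294 and 0 CPM with doxycycline and 0 CPM without it in shDis3l2 (log2 fold change -6.93, SE 0.75, edgeR adjusted p = 0.0017). Adamts1, a protease of proteoglycans, was 3.89, 6.05 and 14.1 CPM with doxycycline and 3.90 CPM without it in shNS and was at 0 in shDis3l2, at least 87-fold lower (edgeR adjusted p = 0.0064). Timp2, an inhibitor of metalloproteinases, was 2.19, 11.3 and 5.02 CPM with doxycycline and 9.30 CPM without it, at least 86-fold lower (edgeR adjusted p = 0.011). Spp1, osteopontin, separated at 424, 266 and 439 CPM with doxycycline and 471 CPM without it against 808, 13901 and 2318 CPM with doxycycline and 9428 CPM without it (log2 fold change -4.02, SE 0.89, edgeR adjusted p = 0.034), but shNS alone spanned 17.2-fold. Its call was lost without any 1 shDis3l2 library or untreated shNS (edgeR adjusted p from 0.066 to 0.12) and without the count filter.

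Of 22 tested osteoclast genes, 1 was called higher, near the 4.07% of all genes, and 4 lower, against 6.71%. Ctsk, the collagen-degrading cathepsin of osteoclasts, was 0.657, 0.0589 and 0.0297 CPM with doxycycline and 0.153 CPM without it against 8.44, 11.4 and 39.2 CPM with doxycycline and 3.35 CPM without it (log2 fold change -5.85, SE 1.00, edgeR adjusted p = 0.014), and its call was lost without shDis3l2 replicate 2 (0.056). The median of this list was 0.02 in the 8 libraries and 0.75 in the untreated pair.

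The genes that separated with higher levels were concentrated on chromosome 9. There 184 of 767 tested genes (24.0%) separated higher, against 7.83% off that chromosome, and lower separation was at 8.08%. Of the 498 called and separated higher genes, 121 (24.3%) lay on it. Their median log2 fold change was 0.70, against 1.11 for those elsewhere, and 26 differed at least 2-fold. The chromosomes other than 9 with at least 100 genes tested ranged from 5.26 to 10.2% separated higher. Examples on chromosome 9 are Nectin1, an adhesion protein, at 658, 783 and 834 CPM with doxycycline and 376 CPM without it against 163, 171 and 179 CPM with doxycycline and 176 CPM without it (log2 fold change 1.89, SE 0.20, edgeR adjusted p = 0.0016), and the cyclin Ccnb2, at 118, 127 and 116 CPM with doxycycline and 155 CPM without it against 75.0, 51.5 and 35.5 CPM with doxycycline and 63.0 CPM without it (log2 fold change 1.19, SE 0.21, edgeR adjusted p = 0.011), a call lost without both shNS replicate 2 and untreated shNS (0.076). These shares are for the whole chromosome, whereas its runs of higher neighbours, described below, lay in a part of it. Gene dosage was not measured.

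**Figure D5:**
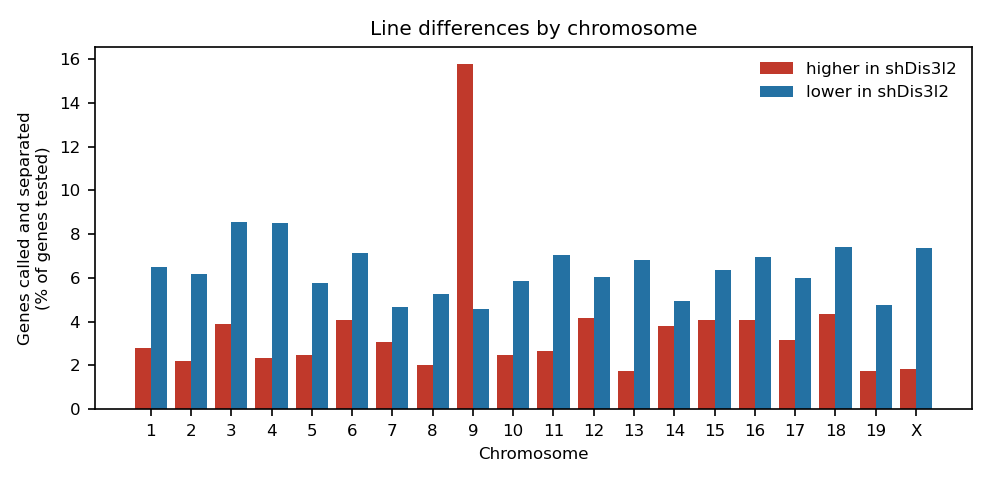
Bars give the share of tested genes on each chromosome that were both called and separated, in percent, with those higher in shDis3l2 in red and those lower in blue. Chromosome 9 stands out for higher genes at 15.8%, while its share of lower genes, 4.56%, lies under the 6.28% of all genes.

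Genes next to each other also differed in the same direction. Taking the tested genes in order, 39 runs of at least 3 neighbours were called and separated one way. On chromosome 9 there were 15 higher runs and 1 lower, and off it 23 runs, 18 of them lower. The higher runs on chromosome 9 all lay between positions 35267865 and 80144953, and the lower one at 92249750 to 94538081. Fcgr2b, Fcgr4 and Fcgr3 formed a lower run on chromosome 1, as did Cd28 and Icos with a gene model between them, at a median of -6.90 on the log2 scale. C3ar1, Necap1, Clec4a1 and Clec4a3 on chromosome 6 had a median of -3.20. Ifit3, Ifit3b and Ifit1 on chromosome 19 were a higher run with a median of 4.07. The Fcgr, Clec4a and Ifit members of these runs are related genes, and the counting shares reads among near-identical copies. Whether runs were more frequent than the shares of called genes would give was not tested.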

How the data were processed

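RNA of 8 RAW264.7 libraries was sequenced from a stranded kit that depletes ribosomal RNA, per the labels' protocols. Trimming with cutadapt, alignment with STAR 2.7 and quantification with RSEM on GRCm38 or mm10 are listed in the submitters' processing notes. The annotation, strand setting and remaining versions are not given. What the authors deposited is a single gene table of unnormalized expected counts from RSEM, which shares out reads that match several genes. All 55450 identifiers matched GENCODE M21 on GRCm38, the source of symbols and coordinates.

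Expected counts were rounded to whole numbers. Genes passed filterByExpr with a minimum count of 10 (13763 of the 22276 with a count), and a gene read in one line only passes through that line alone. edgeR's quasi-likelihood test (R 4.3.3, edgeR 4.0.16, robust, TMM scaling, 5 residual degrees of freedom) was fitted with doxycycline and line as terms, two-sided, with Benjamini-Hochberg adjustment over all genes at 0.05. An interaction term and a fit of the 6 treated libraries were added. Untreated ratios use a prior count of 2. The script was tested on simulated data. Counting intervals are at 95%. Alternatives were other scalings and filters, DESeq2 1.42.0, limma-voom (limma 3.58.1), a replicate block, a 2-fold minimum and left-out libraries.

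The groups, the genes marking the comparison and the 22 gene lists were chosen with earlier results of these data known. Genes named are Dis3l2, Runx3, Hpgd, Umodl1, Kndc1 and Rgs18, the 12 largest rises and falls among called and separated genes with a mean count of at least 50, the 6 most abundant of each direction that differ 2-fold, and in each list the called members with the lowest adjusted p, up to 3. Predicted-gene and clone names were passed over among the largest. Other genes named were chosen after their values were seen. The result of 1 gene that the rule names is not reported here. Treated replicates of a line were checked for repeated libraries, and their chi-square per gene was at least 18.2, far above counting noise. No library was left out of the main comparison.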

Additional observations from a re-analysis of the deposited data

Results flagged for a closer look

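In 11 of 123 groups of 4 libraries, formed by a named gene in one line, the highest or lowest library lay far from the other 3 by Dixon's test, and chance alone flags about 1 in 20 groups. In shNS replicate 3, Irf5 stood at 224 CPM, Myo10 at 178 CPM and Ank at 170 CPM, all above the other shNS libraries, and Sort1 stood at 30.5 CPM, below them. The other shNS libraries held 109 to 125 CPM of Irf5, an interferon regulatory factor, 71.8 to 82.9 CPM of Myo10, an unconventional myosin, 78.6 to 91.0 CPM of Ank, a pyrophosphate transporter, and 42.2 to 43.1 CPM of Sort1. In shNS replicate 2, Vopp1 was 9.34 CPM against 7.53 to 7.79 CPM, and in shNS replicate 1, Gng12 was 66.3 CPM against 71.6 to 72.3 CPM. In shDis3l2 replicate 1, Chst7 was 5.55 CPM against 1.58 to 2.14 CPM, Fstl5 8.56 CPM against 16.2 to 17.4 CPM and Tmsb4x 1130 CPM against 793 to 828 CPM. In shDis3l2 replicate 3, Ptgr1 was 0.713 CPM against 1.59 to 1.71 CPM. The untreated shDis3l2 library held 2530 CPM of Itga4 against 1119 to 1174 CPM in the treated ones.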

How the results depend on the processing

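The count of 1483 genes called for the line became 2403 with DESeq2, 879 with a 2-fold minimum, 845 in the 6 treated libraries, 908 without both shNS replicate 2 and untreated shNS and 3260 without shNS replicates 1 and 3, and ran from 546 to 1956 with 1 library left out (833 without untreated shNS, 830 without untreated shDis3l2). The replicate block gave 969 calls and lost, among others, those of Spp1 (edgeR adjusted p = 0.11), Ctsd (0.051) and Gna12 (0.063). Same-numbered libraries of the lines did not deviate together (correlations of -0.13, 0.023 and -0.0064), so the numbers do not pair them. Complete separation, 2552 genes, was met by 1037 genes at 2-fold, 4020 without shNS replicate 2 and untreated shNS, 6602 without shNS replicates 1 and 3, and 2754 to 4015 with 1 library left out, as fewer libraries separate more easily. The 347 wide-gap genes became 801, 988 and 2479 in the treated libraries and without either shNS pair, and 379 to 758 with 1 library left out (551 without untreated shDis3l2). The 30 genes with at most 3 counts in one line and a level in the other became 134 without shNS replicates 1 and 3. Separation uses no test, so it has no value under DESeq2, limma-voom, the block or the fit without a doxycycline term. The log2 fold change of Dis3l2 (-0.80) passed the threshold without a count filter (-0.77, adjusted p = 0.048), with DESeq2 (-0.80, 0.0068), in the treated libraries (-1.05, 0.022) and without shNS replicate 2 and untreated shNS (-1.02, 0.034), and ran from -0.66 to -1.05 with 1 library left out (-1.04 without untreated shNS). The 0 interaction calls of edgeR became 2 without a count filter, 37 with DESeq2 and 0 to 117 with 1 library left out. Of the genes called in treated libraries, 93.7% kept their direction without doxycycline, and 85.1 to 95.6% with 1 library left out. Other scalings and count filters kept the counts of called, separated and wide-gap genes within 1.5 times. No named gene reversed its direction under these alternatives, and 56 of the 79 called ones were called in every alternative in which they were tested. With 1 untreated library per line, the spread without doxycycline is unknown.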

Other observations

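Among the most abundant genes that were called, separated and differed at least 2-fold, Itga4, a chain of the integrin that binds VCAM-1, was 1174, 1144 and 1119 CPM with doxycycline and 2534 CPM without it in shDis3l2 against 4253, 4757 and 4499 CPM with doxycycline and 4442 CPM without it in shNS (log2 fold change -1.69, SE 0.22, edgeR adjusted p = 0.0033). Its untreated shDis3l2 library lay between the lines. Lrp1, a scavenger receptor, was 802, 1039 and 1191 CPM with doxycycline and 1146 CPM without it against 1778, 2679.6 and 2570.5 CPM with doxycycline and 2792 CPM without it (log2 fold change -1.23, SE 0.18, edgeR adjusted p = 0.0063). Ftl1, the ferritin light chain, was 1734, 967 and 1025 CPM with doxycycline and 778 CPM without it against 2430.2, 4334 and 5178 CPM with doxycycline and 4064 CPM without it (log2 fold change -1.86, SE 0.31, edgeR adjusted p = 0.0093), and edgeR did not call it without both shNS replicate 2 and untreated shNS (adjusted p = 0.051). Tmsb4x, an actin-binding thymosin, was higher at 1132, 793 and 828 CPM with doxycycline and 824 CPM without it against 290.4, 418 and 286 CPM with doxycycline and 536 CPM without it (log2 fold change 1.26, SE 0.22, edgeR adjusted p = 0.012). H2afx, a histone variant of DNA damage on chromosome 9, was 475, 419 and 365 CPM with doxycycline and 445 CPM without it against 241, 141 and 129.9 CPM with doxycycline and 197 CPM without it (log2 fold change 1.27, SE 0.21, edgeR adjusted p = 0.0091), a call lost without the same 2 shNS libraries (0.056).

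All 30 tested mitosis genes had positive log2 fold changes in the 8 libraries and positive ratios in the untreated pair, with a median of 0.50, and 6 were called higher and 0 lower, against 4.07% and 6.71% of all genes. Among those called, Ccnb2 and Kif23 lie on chromosome 9, where the higher genes were concentrated, and Ube2c on chromosome 2. The called number was 20 without shNS replicate 1, 1 without shDis3l2 replicate 2 or either untreated library, 2 without shDis3l2 replicate 1 or 3, 3 without shNS replicate 2 and 0 without both shNS replicate 2 and untreated shNS. Of 45 chromatin silencing factors tested, 2 were called higher, near the 4.07% of all genes, and 1 lower, under their 6.71%. The lower one was Kdm5b, a histone H3K4 demethylase, at 5.80, 6.00 and 4.79 CPM with doxycycline and 7.61 CPM without it against 12.8, 33.6 and 19.1 CPM with doxycycline and 21.0 CPM without it (log2 fold change -1.85, SE 0.30, edgeR adjusted p = 0.008). Of 16 tested genes of Dis3l2 and RNA tailing, 1 was called higher, against 4.07% of all genes, the noncanonical poly(A) polymerase Tent4a, with log2 fold change 0.66, SE 0.12, edgeR adjusted p = 0.013, and that call was lost without shDis3l2 replicate 2 (0.056) or 3 (0.051) and without both shNS replicate 2 and untreated shNS (0.073). The 1 tested gene of the fibroblast and epithelial list and the 2 of T and NK cells were not called.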
